A study of Mus musculus with 6 samples.

Results

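The immediate early genes Fos, Fosb, Fosl1, Jun, Junb, Egr1, Ier2, Atf3, Dusp1 and Nr4a1 were measured by RNAseq in mammary tumors of NeuT/ATTAC mice. Members were the rows whose Ensembl gene ID carries 1 of these symbols in the GRCm38 annotation, which gave 10 of the 54532 gene IDs in the files. These genes respond to growth signals and to the handling of tissue, and the rule uses no measured value. The comparison was of 3 IgG tumors with 3 anti-PD-1 tumors, 1 library each. All the mice carried 2 transgenes, MMTV-NeuT, which drives Erbb2 from a promoter active in the mammary epithelium, and FAT-ATTAC, which was crossed from C57BL/6 into FVB and makes adipocytes sensitive to the dimerizer AP20187. Every mouse, the IgG group included, received 0.4 mg/kg AP20187 by i.p. injection from 6 weeks of age to induce fibrosis (biweekly in the labels, triweekly in the methods). IgG or anti-PD-1 was given from 8 weeks of age at 100 μg, 2 times per week. A legend of the study describes pooled RNA, whereas the files hold 3 libraries per group, and the labels do not say that these came from separate mice, so p-values measure the spread between these libraries, which may be technical.

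Immediate early genes are transcribed within minutes of a growth factor, stress or calcium signal, from factors such as SRF with its ELK partners and CREB that are already present in the cell. Fos and Jun proteins pair through leucine zippers to form AP-1, which binds the promoters of later genes, while phosphatases such as DUSP1 turn the signal off. In Erbb2-driven mammary tumors the receptor feeds the same Ras and MAP kinase cascade, and the surgical removal of tissue induces many of the same genes, so that a level in a tumor library can hold both.

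All 10 members had a mean of at least 0.5 FPKM (fragments counted on a gene, scaled to its exon length and to the size of the library), the minimum for the test, and none of the 10 was at 0 in any tumor. On the log2(FPKM + 1) scale, 6 of the 10 means were higher and 4 were lower after anti-PD-1. The median log2 fold change of the members was 0.03, beside 0.01 over the 15069 genes tested. Nr4a1, which encodes an orphan nuclear receptor, was 2.10-fold higher in anti-PD-1 tumors on the FPKM + 1 scale (95% interval 1.12 to 3.96) and was the member with an unadjusted p under 0.05. Among all genes tested, 12.3% had an unadjusted p under 0.05, with 6.22% higher and 6.05% lower in anti-PD-1, so 1 member of 10 is a share near the background. No member and no other gene had an adjusted p under 0.05 (0.0% of genes tested, limma with Benjamini-Hochberg adjustment over all of them), while 1848 genes had an unadjusted p under 0.05 and limma's voom on the recovered reads gave 1 gene with an adjusted p under 0.05, not a member. The smallest adjusted p among the members was 0.370, and the smallest among all genes was 0.0809.

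Promoters are shown for members that hold a binding motif of a factor that itself belongs to this group, or of CREB. They are the 250 bases before the RefSeq start site in GRCm38.p6, on the strand of the gene, 5′ to 3′. The sequence is in lower case, and capitals mark the motif. Fosb (chr7:19310046-19310295, minus strand) and Nr4a1 (chr15:101266596-101266845, plus strand) each hold a site for EGR proteins, the family of the member Egr1, and Dusp1 (chr17:26508473-26508722, minus strand) holds a cAMP response element, the site of CREB and ATF proteins. The Fosb and Nr4a1 promoters were picked after the matches and values were seen.
Fosb: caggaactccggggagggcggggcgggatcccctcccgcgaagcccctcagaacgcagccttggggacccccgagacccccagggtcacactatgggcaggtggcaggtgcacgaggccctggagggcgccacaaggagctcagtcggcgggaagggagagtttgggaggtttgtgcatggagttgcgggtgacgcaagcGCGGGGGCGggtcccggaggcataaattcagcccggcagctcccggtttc
Nr4a1: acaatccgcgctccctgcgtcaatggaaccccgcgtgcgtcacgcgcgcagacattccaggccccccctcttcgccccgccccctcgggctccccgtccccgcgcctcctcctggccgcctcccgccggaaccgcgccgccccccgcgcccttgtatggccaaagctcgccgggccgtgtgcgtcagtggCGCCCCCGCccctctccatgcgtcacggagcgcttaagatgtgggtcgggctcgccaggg
Dusp1: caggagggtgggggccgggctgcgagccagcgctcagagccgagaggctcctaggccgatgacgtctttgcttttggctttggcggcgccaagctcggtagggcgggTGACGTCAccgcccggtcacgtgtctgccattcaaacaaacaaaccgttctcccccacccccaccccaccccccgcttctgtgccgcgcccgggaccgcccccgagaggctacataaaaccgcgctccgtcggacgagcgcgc

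RefSeq promoters of 300 bases, 250 before and 50 after the start site, were found for 7 of the 10 members (Fos, Fosb, Jun, Junb, Atf3, Dusp1 and Nr4a1), with no entry for Fosl1, Egr1 and Ier2. The motifs were searched on both strands, and matches are described by their letters only. The EGR site, GCGNGGGCG, lies at -60 to -52 in Nr4a1 and at -50 to -42 in Fosb and is held by 5.55% of the 32851 promoters of the table. The full cAMP response element, TGACGTCA, lies at -143 to -136 in Dusp1 and is held by 1.79% of promoters. The TATA box letters TATAAA were found in Fos at -33 to -28 and in Junb at 1 to 6, against 13.6% of promoters. For Junb, on the minus strand, the bases before the RefSeq start reach down to 84978749. The gene annotation used here starts farther downstream, at 84978718, so the Junb match lies before that start. No member window held the AP-1 letters TGANTCA (7.81% of promoters) or the CArG box, the core of the SRF site (1.63% of promoters). Bases farther than 250 before the start site, variants of these letters, and the promoters of Fosl1, Egr1 and Ier2 were not searched. The search therefore cannot decide whether the members lack AP-1 or SRF sites. The EGR-site genes Nr4a1 and Fosb had log2 fold changes of 1.07 and -0.25, and Dusp1 had 0.04.

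The members differed widely in level on the FPKM scale, which is per length of exon. Ier2 was the highest with a mean of 68.0 ± 15.6 FPKM (SD, n = 6), followed by Junb (61.9 ± 16.9), Nr4a1 (57.4 ± 24.8), Jun (22.3 ± 7.66), Egr1 (20.1 ± 3.85) and Fos (14.9 ± 2.58). Dusp1 (6.72 ± 1.54), Atf3 (4.55 ± 0.954), Fosl1 (1.00 ± 0.438) and Fosb (0.527 ± 0.342) were lower. Against the mean FPKM of all genes tested, Ier2 stood at percentile 95.6 and Fosb at percentile 1.13. Neighbours in this order overlapped between tumors, except Fos over Dusp1 and Atf3 over Fosl1, whose ranges were separate. Junb and Nr4a1 could not be ordered, as Junb was the higher of the pair in 3 of the 6 tumors.

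**Figure D1:**
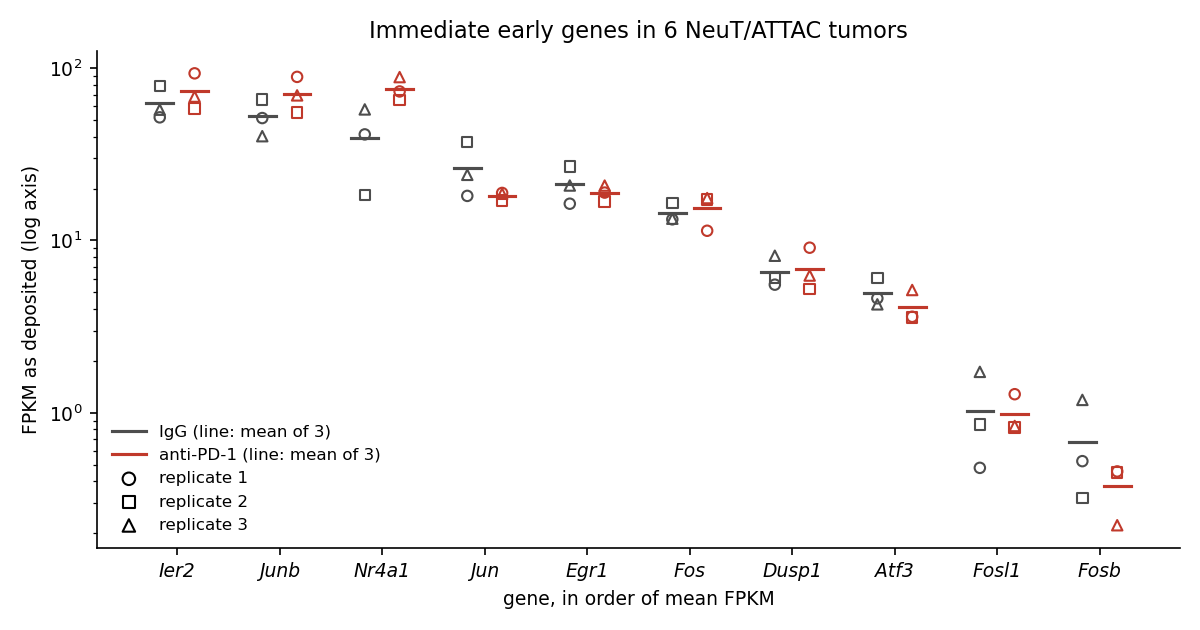
FPKM as deposited (vertical log axis) of each immediate early gene, in order of its mean FPKM, in the 3 IgG tumors (grey) and the 3 anti-PD-1 tumors (red), with the group mean as a line and the replicate number as the shape of the point. The groups overlap for every gene but Nr4a1, in which the 3 anti-PD-1 tumors lie between 65.2 and 88.8 FPKM and the IgG tumors between 18.4 and 57.7.

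Nr4a1 (Nur77; ENSMUSG00000023034, chromosome 15 from 101254269 to 101274795, plus strand) is a nuclear receptor that binds DNA without a known classical ligand and is induced by growth factors and by antigen receptor signals. Its FPKM was 41.3, 18.4 and 57.7 under IgG and 73.3, 65.2 and 88.8 under anti-PD-1, in the order of replicates 1 to 3 as for all values by tumor. The groups did not overlap, and IgG replicate 2 was far below the rest. The anti-PD-1 tumors averaged 75.8 ± 12.0 FPKM and the IgG tumors 39.1 ± 19.7 (SD, n = 3 each). On the log2(FPKM + 1) scale the fold change was 1.07 (standard error 0.39, unadjusted p = 0.0275, adjusted p = 0.370 from limma). A two-sided exact permutation test gave p = 0.1, the smallest that 3 tumors against 3 allow. By its p it ranked 1117 of 15069 genes, and 2.99% of genes had a log2 fold change at least as large in size.

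Groups without overlap were seen in 1 of the 10 members, beside 18.1% of all genes tested (9.3% higher and 8.75% lower in anti-PD-1). The Nr4a1 values rested on 1545 to 7400 reads per tumor. The call at an unadjusted p under 0.05 was lost in limma without anti-PD-1 replicate 1 (log2 fold change 1.09) and without anti-PD-1 replicate 3 (0.96). Without IgG replicate 2, the low tumor, the log2 fold change of Nr4a1 was 0.61 in place of 1.07, still at an unadjusted p under 0.05. The median of the tested genes of chromosome 15 was 0.16 above that of all genes (log2 fold change), and Nr4a1 less that median was 0.90. By tumor, the median deviation of chromosome 15 genes was -0.09, -0.18 and -0.01 under IgG and -0.05, -0.05 and 0.33 under anti-PD-1 on the log2 scale, with anti-PD-1 replicate 3 apart from the rest. In bulk tumors, a difference in RNA per cell and a difference in the number of cells of a type cannot be told apart.

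The paralogs of Nr4a1, which bind the same DNA element, had other values. Nr4a2 was at 1.29 to 1.92 FPKM under IgG and at 1.08 to 2.04 FPKM under anti-PD-1, with a log2 fold change of 0.07 (adjusted p = 0.917, limma). Nr4a3 lay below the minimum for the test, at 0 to 0.258 FPKM. Nr4a1 was thus the most abundant of the 3 paralogs in each of the 6 tumors.

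Of the Jun family, Junb (ENSMUSG00000052837, chromosome 8 from 84974484 to 84978718, minus strand) encodes the AP-1 subunit that often opposes c-Jun on shared targets. Junb was at 51.4, 65.8 and 40.3 FPKM under IgG and at 89.1, 55.3 and 69.5 FPKM under anti-PD-1. The anti-PD-1 tumors held the 2 highest values, but IgG replicate 2 lay above anti-PD-1 replicate 2. Its fold change on the log2 scale was 0.44 (95% interval -0.15 to 1.03, adjusted p = 0.50, limma), a difference within the spread between tumors. The interval allows a fold from 0.904 to 2.04. Junb shares 173 of its 2301 exon bases with Prdx2 on the opposite strand, which was at 69.6, 74.9 and 86.1 FPKM under IgG and at 131, 91.1 and 120 FPKM under anti-PD-1. Prdx2 was thus higher in every anti-PD-1 tumor, the direction of the mean of Junb, and whether the counting used strand is not given in the sources used here.

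Jun (ENSMUSG00000052684, chromosome 4 from 95049034 to 95052222, minus strand) encodes c-Jun, the AP-1 subunit activated by JNK. It shares 232 of its 3189 exon bases with Junos on the opposite strand, which was lower in every anti-PD-1 tumor (0.431 to 0.683 FPKM) than in the IgG tumors (0.817 to 2.26 FPKM). Jun was at 18.2, 37.2 and 24.1 FPKM under IgG and at 18.9, 17.0 and 18.7 FPKM under anti-PD-1. The anti-PD-1 tumors and IgG replicate 1 were close to one another, and IgG replicates 2 and 3 were above them. The log2 fold change of Jun was -0.45 (95% interval -1.05 to 0.14, adjusted p = 0.496, limma). Without IgG replicate 2, the highest tumor, it was -0.19 with groups that overlapped, and without IgG replicate 1 it was -0.68 with an unadjusted p of 0.0215 and groups that did not. Relative to all genes, the 926 tested genes of chromosome 4 had a median of -0.41 (log2 fold change), and Jun less that median was -0.05. By tumor, the median deviation of chromosome 4 genes from their mean was -0.09, 0.35 and 0.31 under IgG and -0.16, -0.22 and -0.24 under anti-PD-1 on the log2 scale, while Jun itself deviated by -0.23, 0.76 and 0.15 and by -0.17, -0.32 and -0.19. In each tumor Jun deviated in the same direction as the median of its chromosome, and the part of the chromosome in the Jun values was not tested.

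The ratio of Junb to Jun FPKM, which was looked at after the values were seen, was 2.83, 1.77 and 1.68 under IgG and 4.72, 3.25 and 3.73 under anti-PD-1. The lowest anti-PD-1 ratio was above the highest IgG ratio (3.90 ± 0.751 against 2.09 ± 0.640, SD, n = 3 each). This is a description with no test, and of the 45 ratios between 2 members 12 were separate between the groups, 5 of them with Nr4a1. The share over ratios of other genes was not counted, so 12 of 45 cannot be set against a background. Jun lies on chromosome 4, whose median moved with it, and the part of that chromosome, or of reads shared with Prdx2 and Junos, in the ratio was not tested. The third family member, Jund, was at 58.0, 102 and 71.1 FPKM under IgG and at 92.2, 59.3 and 59.4 FPKM in anti-PD-1 tumors, with a log2 fold change of -0.12 that turned to 0.09 without IgG replicate 2. The summed FPKM of Jun and Junb was 64.4 to 103 in IgG and 72.3 to 108 in anti-PD-1 tumors.

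**Figure D2:**
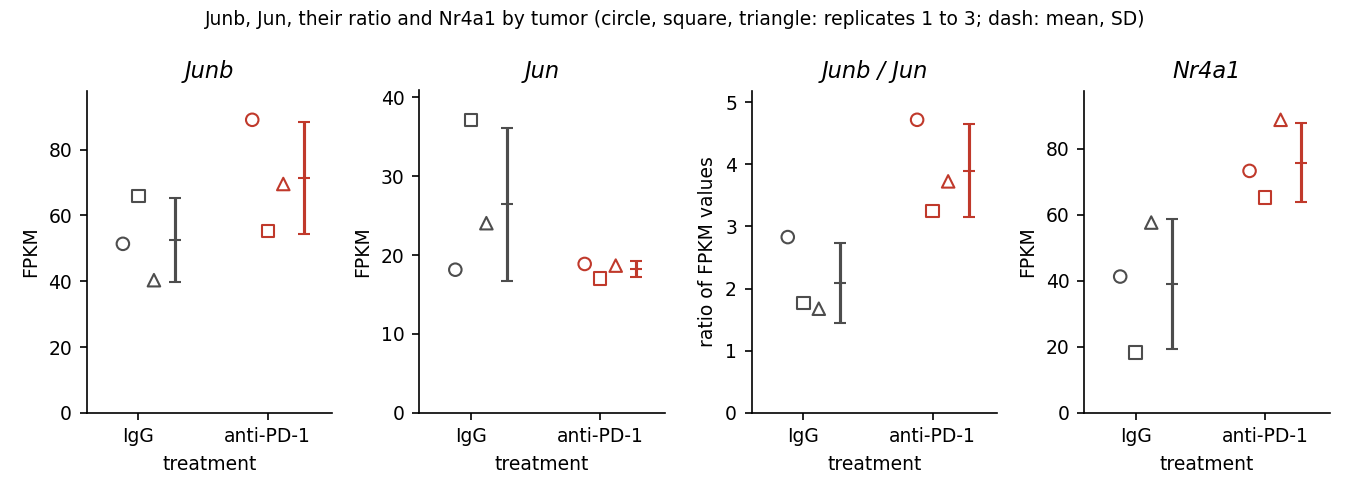
FPKM of Junb, Jun and Nr4a1 and the ratio of Junb to Jun FPKM (vertical axes from 0) in each IgG (grey) and anti-PD-1 (red) tumor, where circle, square and triangle are replicates 1 to 3 and the dash with bars is the mean and SD of 3 tumors. The groups overlap for Junb and Jun singly and are separate for their ratio (1.68 to 2.83 against 3.25 to 4.72) and for Nr4a1.

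Of the Fos family, Fos (ENSMUSG00000021250, chromosome 12 from 85473890 to 85477273, plus strand), the classical partner of Jun, was at 13.3, 16.5 and 13.4 FPKM under IgG and at 11.4, 17.3 and 17.6 FPKM under anti-PD-1. It was the member that varied least, with the highest tumor 1.55 times the lowest. The log2 fold change of Fos was 0.08 (95% interval -0.40 to 0.57, adjusted p = 0.890, limma), so that changes from 0.758-fold to 1.48-fold were within the interval. The sign of so small a value turned without anti-PD-1 replicate 3 (-0.01).

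Fosb (ENSMUSG00000003545, chromosome 7 from 19302696 to 19310051, minus strand), whose truncated splice form is stable and builds up under repeated stimulation, was at 0.524, 0.320 and 1.19 FPKM under IgG and at 0.457, 0.449 and 0.223 FPKM under anti-PD-1. It was the member that varied most, with the highest tumor 5.34 times the lowest, and IgG replicate 3 stood apart at the top. These values rested on 33 to 181 reads. Fosb passed the minimum of 0.5 FPKM only through the IgG tumors, with a mean of 0.677 FPKM there and 0.376 FPKM under anti-PD-1. Its mean of 0.527 FPKM over all tumors depended on IgG replicate 3. The fits that left out 1 tumor kept the genes of the main fit. A fold change of -0.25 on the log2 scale (adjusted p = 0.711, limma) was -0.05 without IgG replicate 3, -0.59 with a pseudocount of 0.1 and -0.70 with voom, and Fosb was not called in any of these.

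Fosl1 (ENSMUSG00000024912, chromosome 19 from 5447547 to 5455946, plus strand) encodes Fra-1, which is often high in invasive mammary cells. Its FPKM was 0.479, 0.854 and 1.73 under IgG and 1.28, 0.821 and 0.839 under anti-PD-1, on 18 to 72 reads, with a log2 fold change of 0.01 (95% interval -0.63 to 0.65, adjusted p = 0.989, limma). Again IgG replicate 3 was the highest tumor. Of the 2033 merged exon bases of Fosl1, 57.2% are shared with Ccdc85b on the opposite strand, a gene at 42.8 to 84.7 FPKM, so the Fosl1 level is uncertain. Its values gave whole reads for an exon length of 1707 bases rather than 2033. Fosl2 (Fra-2), at 6.83 to 14.0 FPKM, brought the summed FPKM of the Fos family to 24.5 to 27.8 in IgG and 25.5 to 28.1 in anti-PD-1 tumors, a narrow range in which the groups overlapped.

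Egr1 (ENSMUSG00000038418, chromosome 18 from 34859823 to 34864984, plus strand), a zinc finger factor of the first wave after growth factor addition, was at 16.4, 27.0 and 20.9 FPKM under IgG and at 19.0, 16.8 and 20.8 FPKM under anti-PD-1. IgG replicate 2 was the highest and IgG replicate 1 the lowest tumor, with the anti-PD-1 tumors between them. Between the groups the log2 fold change was -0.14 (95% interval -0.63 to 0.34, adjusted p = 0.805, limma). Its paralog Egr2 was at 2.01, 0.674 and 0.989 FPKM under IgG and at 3.69, 2.33 and 3.38 FPKM under anti-PD-1, a log2 fold change of 0.93 (unadjusted p = 0.0102, adjusted p = 0.344, limma) with separate groups. With a pseudocount of 0.1 Egr2 was at 1.40 and with voom at 1.49. Egr3 went from 0.927 to 8.09 FPKM over the 6 tumors, and its highest tumor was IgG replicate 2, as for Egr1.

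Ier2 (ENSMUSG00000053560, chromosome 8 from 84661331 to 84662852, minus strand), a nuclear protein induced by serum, was at 51.9, 78.5 and 57.4 FPKM under IgG and at 93.4, 58.4 and 68.4 FPKM under anti-PD-1. Anti-PD-1 replicate 1 was the highest and IgG replicate 1 the lowest tumor. The log2 fold change of Ier2 was 0.23 (95% interval -0.34 to 0.79, adjusted p = 0.727, limma).

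Atf3 (ENSMUSG00000026628, chromosome 1 from 191170296 to 191218039, minus strand), a stress-induced bZIP repressor, was at 4.62, 6.06 and 4.26 FPKM under IgG and at 3.61, 3.58 and 5.16 FPKM under anti-PD-1. Anti-PD-1 replicates 1 and 2 were below all IgG tumors, while anti-PD-1 replicate 3 lay among them. Anti-PD-1 against IgG gave a log2 fold change of -0.22 (95% interval -0.69 to 0.25, adjusted p = 0.668, limma).

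Dusp1 (ENSMUSG00000024190, chromosome 17 from 26505590 to 26562128, minus strand), the phosphatase that inactivates p38, JNK and ERK in the nucleus, was at 5.54, 6.09 and 8.16 FPKM under IgG and at 9.08, 5.21 and 6.26 FPKM under anti-PD-1. Each group held 1 higher tumor, and the log2 fold change was 0.04 (95% interval -0.51 to 0.58, adjusted p = 0.960, limma). Sharing of exon bases with Ergic1 on the opposite strand was limited to 11 bases. The Dusp1 values gave whole reads for an exon length of 2697 bases rather than 3311.

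**Figure D3:**
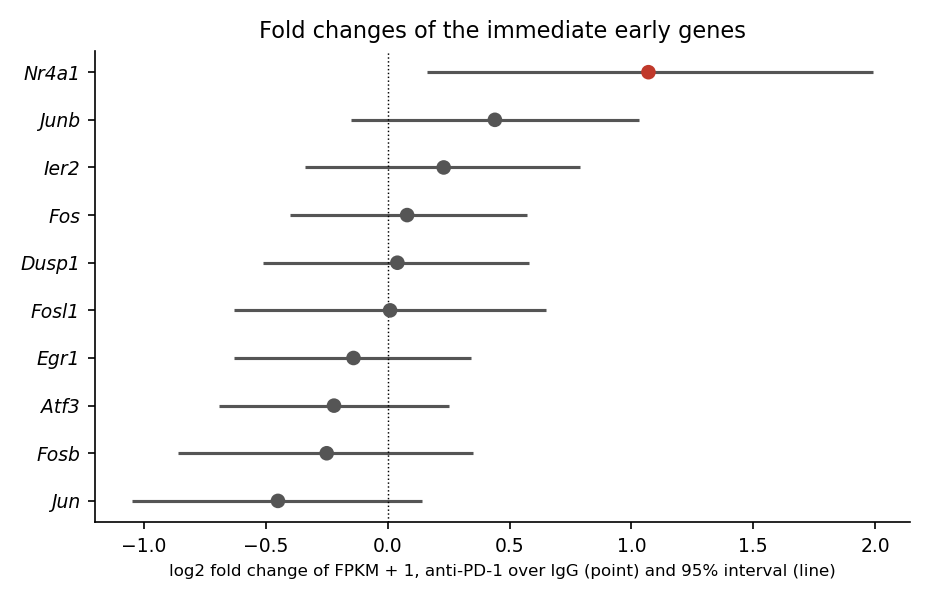
Log2 fold change of FPKM + 1 in anti-PD-1 over IgG tumors (horizontal axis, points) with its 95% interval from limma (lines) for each immediate early gene (vertical axis), with the gene whose groups do not overlap in red. The interval of Nr4a1 (0.16 to 1.99) lies above 0, and the intervals of the other 9 genes include 0.

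The members did not move as 1 group from tumor to tumor. The median of their deviations from each gene's mean was -0.23, 0.14 and 0.11 under IgG and 0.09, -0.15 and 0.05 under anti-PD-1 on the log2 scale. IgG replicate 1 and anti-PD-1 replicate 2 each held the lowest value of 3 members and the highest of none, whereas IgG replicate 2 and anti-PD-1 replicate 1 each held the highest value of 3 members. The ratio of highest to lowest tumor had a median of 1.99 over the members, beside 2.0 over all genes tested. Their residual SD within groups had a median of 0.318 log2 units, beside 0.275.

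Among the 45 pairs of members the median Pearson r over the 6 tumors was 0.08, with 26 pairs above 0, as a description of tumors that also share differences in library and cell content. The highest was that of Jun with Egr1 (r = 0.91, rho = 0.77, n = 6), which was 0.69 without the 2 tumors farthest from the median of Jun. Junb and Ier2, which lie 312 kb apart on chromosome 8, had r = 0.87 (rho = 0.89, n = 6) and 0.89 without the 2 farthest tumors. Fosl1 with Dusp1 had r = 0.83 (rho = 0.83, n = 6). Nr4a1 went the other way from Jun (r = -0.83, rho = -0.37, n = 6), a relation that rests on the 2 tumors farthest from the median of Jun, since r was 0.33 without them.

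Genes most like the members were sought among 10212 protein-coding non-members with a mean of at least 2 FPKM, by Pearson r with the mean z-score of the members. The 8 closest were Terf2ip, Sh2d4a, Lap3, Sh3bp4, Pon2, Nt5c2, Mindy3 and Klhl26, with r from 0.951 to 0.995 over 6 tumors. Their adjusted p in anti-PD-1 against IgG ran from 0.899 to 0.996. With so many genes and 6 tumors, values of this size are a description only.

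Other immediate early transcription factors numbered 19, of which 16 were tested. Their median log2 fold change was 0.11. At an unadjusted p under 0.05, beside 6.22% of all genes higher and 6.05% lower, 2 of the 16 were higher and 0 lower after anti-PD-1. They were Egr2 and Ier5l, a relative of Ier2, which was at 18.9, 12.8 and 9.64 FPKM under IgG and at 25.1, 31.8 and 26.6 FPKM under anti-PD-1 (log2 fold change 1.01, adjusted p = 0.344, limma). For Ier3, the most abundant of the list at 155 to 302 FPKM, it was 0.19 (adjusted p = 0.814).

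Feedback inhibitors of growth and stress signals, such as further DUSP phosphatases, Sprouty proteins and the mRNA decay factor Zfp36, were tested for 19 of 20 genes. Spred3 was higher (log2 fold change 0.61, adjusted p = 0.355, limma) and Errfi1 lower (-0.56, adjusted p = 0.346), the latter on chromosome 4 as Jun is, and Spred3 lost its call in 3 of the 6 fits that left out 1 tumor. The median of the list was 0.18. Dusp6, the ERK phosphatase and the most abundant of the list, was at 114, 171 and 216 FPKM under IgG and at 158, 209 and 345 FPKM in anti-PD-1 tumors, with a log2 fold change of 0.48 (adjusted p = 0.601) within the spread between tumors. With 1 tumor left out, the log2 fold change of Dusp6 ran from 0.18 to 0.74. Zfp36l2 was at 43.3 to 98.0 FPKM, with -0.20 (adjusted p = 0.836).

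Early secreted and other early response genes were tested for 22 of 25, with a median of 0.38. At an unadjusted p under 0.05, 3 were higher and 1 lower, beside 6.22% and 6.05% of all genes tested. Hbegf, an EGF receptor ligand, was at 6.28, 4.97 and 2.76 FPKM under IgG and at 12.6, 18.3 and 21.5 FPKM under anti-PD-1. All anti-PD-1 tumors were above all IgG tumors, and the log2 fold change was 1.73 (standard error 0.30, unadjusted p = 0.000561, adjusted p = 0.344, limma). The cytokine Lif was higher (0.95, adjusted p = 0.355), as was the stress gene Gadd45g (0.80, adjusted p = 0.390), and endothelin Edn1 was lower (-0.58, adjusted p = 0.378). The calls of Lif, Gadd45g and Edn1 were each lost in 4 of the 6 fits that left out 1 tumor, that of Gadd45g also with no filter on low FPKM and that of Edn1 with the replicate number as a block. Edn1 rested on 11 to 68 reads per tumor. It passed the minimum of 0.5 FPKM only through the IgG tumors, with a mean of 0.968 FPKM there and 0.303 FPKM under anti-PD-1. On voom's scale Edn1 was at -1.65 and Lif at 1.43. The most abundant genes of the list, Thbs1 (-0.31, adjusted p = 0.755) and Rhob (0.38, adjusted p = 0.486), did not pass the test.

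Receptors, kinases and factors upstream of the members were tested for 24 of 24 genes, with a median of 0.01. Map2k2, the kinase MEK2, was higher at 28.2, 21.2 and 23.9 FPKM in anti-PD-1 against 18.3, 15.1 and 15.9 FPKM under IgG (log2 fold change 0.54, adjusted p = 0.352, limma). Egfr was lower, at 5.06, 7.07 and 6.08 FPKM against 8.46, 13.7 and 10.4 FPKM (-0.73, adjusted p = 0.344). Mapk3 (ERK1, 102 to 138 FPKM, 0.19, adjusted p = 0.669) and Erbb3 (47.7 to 77.8 FPKM, 0.19, adjusted p = 0.735) did not pass. For Erbb2, the receptor of the transgene, the log2 fold change was 0.34 (adjusted p = 0.424). Srf, counted in the list of transcription factors, had -0.15 (adjusted p = 0.774).

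Of the other bZIP partners, 11 of 11 were tested and Jdp2, a repressor that pairs with Jun, was higher (0.63, adjusted p = 0.380, limma), with a median of 0.08 for the list. Its groups overlapped, and its call was lost in 4 of the 6 fits that left out 1 tumor. Atf4 (64.1 to 94.4 FPKM) had 0.19 and Mafg (15.4 to 25.4 FPKM) had 0.33. Among AP-1 target genes, 9 of 11 were tested, with a median of 0.75. At an unadjusted p under 0.05, 4 were higher and 0 lower, beside 6.22% and 6.05% of all genes tested. The 4 were Vim (log2 fold change 1.54), Mmp3 (0.92), Ccnd1 (0.86) and Hmga1 (0.75), with adjusted p from 0.344 to 0.373. Hmga1 lost its call in 4 of the 6 fits that left out 1 tumor and Mmp3 in 1 of them. The study chose Vim, Mmp3 and Ccnd1 on these tumors, so the direction of this list is not independent evidence. Spp1, its most abundant gene, was at 235 to 3706 FPKM, with 0.93 (adjusted p = 0.731), and the low value was that of IgG replicate 3.

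**Figure D4:**
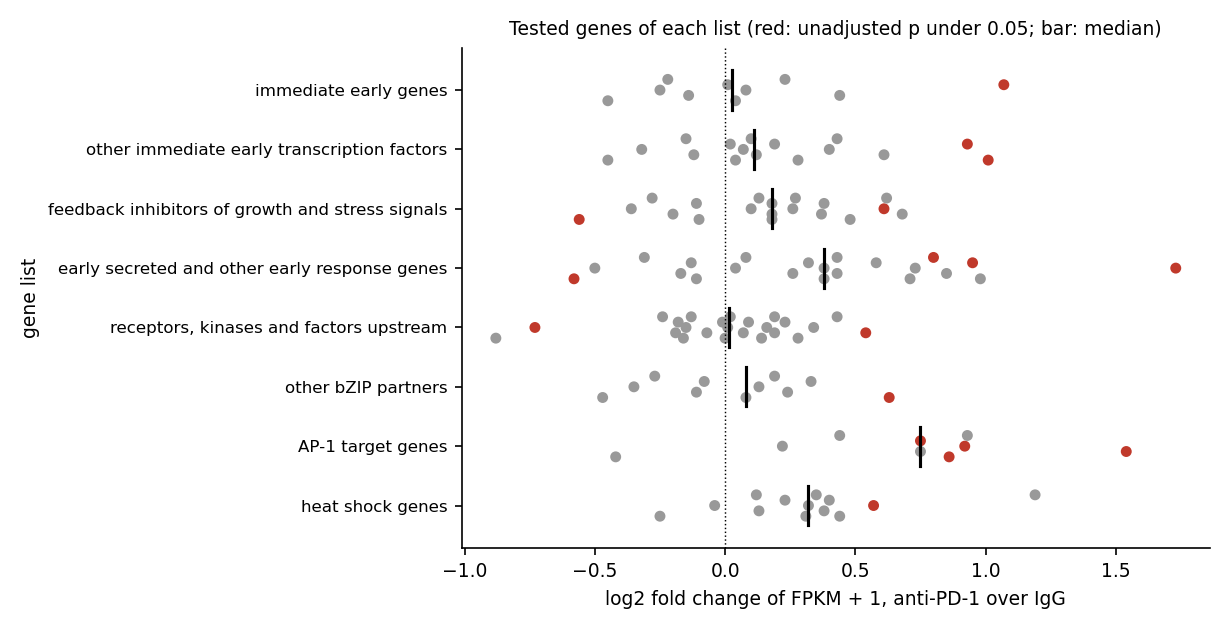
Log2 fold change of FPKM + 1 in anti-PD-1 over IgG tumors (horizontal axis) of each tested gene, by list (vertical axis), in red where the unadjusted p was under 0.05, with the median of the list as a black bar. The immediate early genes lie around a median of 0.03, and the medians of the other lists shown, without the cell type markers, run from 0.01 for genes upstream to 0.75 for AP-1 targets.

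Heat shock genes, which also respond to the handling of tissue, were tested for 13 of 13, with a median of 0.32. At an unadjusted p under 0.05, 1 was higher and 0 lower, beside 6.22% and 6.05% of all genes tested. The higher gene was Dnajb1 (0.57, adjusted p = 0.357, limma, lost in 2 of the 6 fits that left out 1 tumor). The summed FPKM of the heat shock genes was 500 to 1098 in IgG and 789 to 1085 in anti-PD-1 tumors, so the groups overlapped. Hspa8 (0.35, adjusted p = 0.599) and Hsp90aa1 (0.12, adjusted p = 0.913) were the most abundant of them. Reads of mitochondrial genes made up 3.48%, 3.82% and 2.10% under IgG and 1.99%, 2.85% and 2.46% under anti-PD-1. The time from excision to freezing is not given in the sources used here, and its part in the values of the members was not tested.

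Luminal markers were present, with 6 of 6 tested, Epcam at 690 to 1150 FPKM and a summed level of 1914 to 2652 in IgG and 2521 to 3648 FPKM in anti-PD-1 tumors. Of the 6 luminal markers 4 had a higher and 2 a lower mean after anti-PD-1, with a median log2 fold change of 0.34 and 3 whose groups did not overlap, beside 18.1% of all genes tested. Epcam (0.43, adjusted p = 0.462, limma) and Erbb2 were higher in every anti-PD-1 tumor, and Krt8 (0.41, adjusted p = 0.613) and Krt18 (0.34, adjusted p = 0.658) had groups that overlapped. At an unadjusted p under 0.05, 1 was lower, Krt19, at 7.84, 77.9 and 7.47 FPKM under IgG and at 4.09, 5.27 and 1.70 FPKM under anti-PD-1 (log2 fold change -2.03, adjusted p = 0.404, limma). Its groups did not overlap, and without IgG replicate 2, which stood apart, the log2 fold change of Krt19 was -0.97. Its call was lost in 3 of the 6 fits that left out 1 tumor, with no filter on low FPKM, with quantile normalization, without the eBayes trend and with voom. Cdh1 was at -0.34 (adjusted p = 0.588) with groups that overlapped. Macrophage markers summed to 275, 325 and 185 FPKM under IgG and to 385, 242 and 390 FPKM under anti-PD-1. All 6 had a higher mean after anti-PD-1, with a median log2 fold change of 0.37. At an unadjusted p under 0.05, 1 of 6 was higher, Cd68 (0.76, adjusted p = 0.344, limma), beside 6.22% of all genes tested. The others ran from 0.01 (Adgre1) to 0.49 (Mrc1), with groups that overlapped. IgG replicate 2, the tumor with the lowest Nr4a1, had the highest macrophage sum of its group. Under anti-PD-1, both Nr4a1 and the macrophage sum were lowest in replicate 2 and highest in replicate 3. The part of macrophages in the Nr4a1 values was not tested. T cell markers were below the test minimum for all 6 genes, with none of the 6 at 0 in every tumor. Their sum was highest in IgG replicate 2, at 4.21 FPKM (0.753 to 1.72 in the other tumors). Neutrophil markers (3 of 5 tested, 2.86 to 26.0 FPKM), fibroblast markers (6 of 6, 76.5 to 338 FPKM), endothelial markers (5 of 5, 9.38 to 20.3 FPKM), basal markers (4 of 5, 14.5 to 38.8 FPKM) and adipocyte markers (1 of 6, 1.78 to 6.96 FPKM) had groups that overlapped and no gene past the threshold. The most abundant marker of each list was C1qa for macrophages (log2 fold change 0.34, adjusted p = 0.673, limma), S100a8 (1.09, 0.621), Col1a1 (0.76, 0.666), Cdh5 (-0.54, 0.602), Acta2 (0.55, 0.608) and Fabp4 (-0.32, 0.756) for the lists just given, Cd4 for T cells (not tested), Acta1 (1.28, 0.807) for muscle and Hbb-bs (-0.51, 0.861) for erythroid cells, where the second value is the adjusted p. Skeletal muscle markers summed to 0.147, 112 and 3.88 FPKM under IgG and to 63.5, 118 and 0.328 FPKM under anti-PD-1. IgG replicate 2, with muscle and the highest T cell sum, was also the tumor with the lowest Nr4a1 and the highest Jun, Egr1 and Atf3. Anti-PD-1 replicate 2, with the highest muscle sum, had the lowest Jun (17.0 FPKM) and Atf3 (3.58 FPKM), and Nr4a1 at 65.2 FPKM. The part of muscle or T cells in these values was not tested. Erythroid markers reached 835 FPKM in anti-PD-1 replicate 1, the tumor with the highest Junb, Ier2 and Dusp1, against 41.5 to 279 FPKM in the others, and their part in those values was not tested.

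Depth was similar in the 6 libraries, with 21320856 to 24172627 reads recovered from the FPKM steps, and on 2 kb of exons 3 reads were worth 0.0586 to 0.0682 FPKM. No pair of libraries was identical, and the Pearson r of log2(FPKM + 1) across genes, which are not independent, was 0.943 to 0.977.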

How the data were processed

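By the methods of the study, reads were trimmed with Cutadapt 3.5, aligned to mm10 and counted with RSEM 1.3.1. The authors deposited FPKM per Ensembl gene ID, 1 file per tumor, and how FPKM was computed is not given in the sources used here. Members and lists were chosen with earlier results of these data known. Gene IDs were matched to GENCODE M21 (GRCm38; 54495 of 54532 IDs). FPKM times exon length gave whole reads, within 0.1 of a whole number, for 97.0% to 97.3% of detected values per tumor. FPKM was divided by median-of-ratios factors (1.00 to 1.01), 1 was added and log2 taken, which understates changes of low genes. Genes with a mean of at least 0.5 FPKM entered limma 3.58.1 under R 4.3.3 (eBayes with trend, two-sided, Benjamini-Hochberg over all 15069 genes), and the fit was tested on simulated data. Single values were compared by exact permutation. Chromosome shifts are median log2 fold changes less that of all genes.

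Besides the members, of each pathway list the genes named are at most 3 at an unadjusted p under 0.05 with the smallest p, the 2 with the highest mean FPKM, and the paralogs Fosl2, Jund, Egr2, Egr3, Nr4a2 and Nr4a3; of each marker list the most abundant, except 1 list that is not reported here. Erbb2, Srf, Cd68, Adgre1, Mrc1, Krt8, Krt18, Krt19 and Cdh1, and Hmga1 and Gadd45g as members of small counts, were named after their values were seen, as was the ratio of Junb to Jun. Nr4a3 was not tested. Alternatives were 0.1 added, no filter, a mean of 2 FPKM, FPKM as deposited, quantile normalization, eBayes without trend, the replicate number as a block, voom on the recovered reads (863 genes higher and 964 lower at an unadjusted p under 0.05) and leaving out each tumor. Python 3.11.15 was used for tables and figures.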

Additional observations from a re-analysis of the deposited data

How the results depend on the processing

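The direction of Nr4a1 was higher in anti-PD-1 under every alternative run, with log2 fold changes between 0.61 and 1.42 (leaving out IgG replicate 2 and IgG replicate 3), and its call at an unadjusted p under 0.05 was lost with quantile normalization (0.94), which left 0 members called by limma at an unadjusted p under 0.05. Leaving out 1 tumor at a time, 0 to 2 members were called, 1 to 4 members had groups that did not overlap (22.9% to 35.5% of all genes in the same fits), and 954 to 2678 of all genes had an unadjusted p under 0.05. Without IgG replicate 2 the 4 were Nr4a1, Junb, Ier2 and Fosb, where 22.9% of all genes did not overlap. No member reached an adjusted p under 0.05 in any setting, although 12 other genes did without IgG replicate 1. The median of the members lay between -0.13 and 0.11 (leaving out IgG replicate 1 and IgG replicate 3).

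None of the genes whose sign turned with a tumor left out was called, and their ranges were -0.01 to 0.27 for Fos, -0.19 to 0.25 for Fosl1, -0.31 to 0.02 for Egr1, -0.16 to 0.20 for Dusp1, -0.12 to 0.36 for Ier3, -0.33 to 0.09 for Jund, -0.23 to 0.25 for Fosl2, -0.99 to 0.02 for Egr3, -0.04 to 0.24 for Nr4a2, -0.49 to 0.06 for Zfp36l2, -0.01 to 0.32 for Erbb3, -0.36 to 1.62 for Spp1, -0.29 to 0.02 for Srf, -0.72 to 0.04 for Fabp4, -1.73 to 0.31 for Hbb-bs and -0.21 to 0.50 for Hsp90aa1. The cause was not tested. Ier2 kept its sign between 0.04 (without anti-PD-1 replicate 1) and 0.39 (without IgG replicate 2) and was at 0.09 with quantile normalization, Junb between 0.27 and 0.61, and Atf3 between -0.36 and -0.10. Markers that kept their sign also moved widely. The ranges were 0.08 to 0.58 for C1qa, 0.27 to 1.81 for S100a8, 0.20 to 1.39 for Col1a1 and -0.85 to -0.12 for Cdh5. Acta2 ran from 0.21 to 0.99 and Acta1 from 0.10 to 3.09.

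With the replicate number as a replicate block, 1 member (Nr4a1, adjusted p = 0.395 from limma) and 1725 genes had an unadjusted p under 0.05. Tumors of the same number had deviations that correlated at -0.164, 0.005 and 0.194, and the samples share only a number. With a mean of at least 2 FPKM, Fosb and Fosl1 were not tested. Among the members, depth limits Fosl1 and Fosb most, with as few as 18 and 33 reads in a tumor, and 3 tumors per group limit every comparison.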
